A study of Mus musculus and Macaca mulatta with 39 samples.

Results

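The Dlk1 to Dio3 imprinted region was taken as mouse chromosome 12 from 110600000 to 111600000 (build mm9), a window of 1 Mb with Dlk1 at about 110691000 and Dio3 at about 111517000. Its members were all called regions of the 16 mouse lists that fell in the window, for the genes Dlk1, Meg3 and Dio3. The window held 554 of the 921935 regions in the 16 lists, 318 of 535103 for H3K27ac and 236 of 386832 for H3K4me2. No region crossed an edge of the window. The first region inside lay 11927 bp from the left edge and the last one outside lay 217850 bp before it, and the last region inside lay 66175 bp before the right edge and the first one outside 11001 bp beyond it. The lists came from chromatin immunoprecipitation with sequencing (ChIP-seq) of cortex from C57BL6J mouse embryos with no stated treatment or mutation. The 4 tissues were cortex of embryonic day 11.5 (E11.5), cortex of E14.5, and the frontal and the occipital area of E17.5 cortex, with 2 biological replicates each. In each replicate both marks were profiled, with an input control that they shared. The members were chosen by position, and the presence of called regions by mark and stage was part of the choice, so these values are given as a description.

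In the imprinted cluster that runs from Dlk1 to Dio3, protein-coding genes are expressed from the paternal chromosome and noncoding RNAs from the maternal one. Dlk1 encodes a transmembrane protein of the Notch ligand family that lacks the domain of the canonical ligands, and in brain it is known from neural stem cells and their niche. Meg3 is a maternally expressed long noncoding RNA, and Dio3 encodes the deiodinase that inactivates thyroid hormone. H3K27ac marks active promoters and enhancers, and H3K4me2 lies at promoters and enhancers with or without acetylation. The lists hold positions only, so the parental chromosome that carried a mark could not be read from them. In RefSeq (GRCm38.p6) the order across the region is Slc25a29, Wars, Wdr25, Begain, Dlk1, Meg3, Rtl1, Rian, Mirg, Dio3, Ppp2r5c and Dync1h1. Between Dlk1 and Dio3 it lists 1 protein-coding gene (Rtl1), 16 long noncoding RNAs, 61 miRNA genes, 19 snoRNA genes and 4 pseudogenes. No mm9 annotation was used, so Meg3 and the other genes between the anchors were not placed on the coordinates below.

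All 3 members had promoter sequence in RefSeq (GRCm38.p6), from 250 bases before to 50 bases after the start, on the plus strand for each. The promoters are shown because the regions at both anchors were called beside or over the starts of Dlk1 and Dio3 as the rule places them, and the 3 promoters differ in base composition. Capitals mark matches on either strand to TATAAA or CCAAT or GGGCGG. Meg3 has 2 start sites in the table, and the first is printed.
Dlk1: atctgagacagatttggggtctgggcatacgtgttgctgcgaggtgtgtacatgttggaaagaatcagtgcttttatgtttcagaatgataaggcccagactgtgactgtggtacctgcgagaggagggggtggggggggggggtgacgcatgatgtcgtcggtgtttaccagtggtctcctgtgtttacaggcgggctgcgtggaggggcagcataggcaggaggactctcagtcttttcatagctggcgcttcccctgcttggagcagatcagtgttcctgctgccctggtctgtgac
Meg3: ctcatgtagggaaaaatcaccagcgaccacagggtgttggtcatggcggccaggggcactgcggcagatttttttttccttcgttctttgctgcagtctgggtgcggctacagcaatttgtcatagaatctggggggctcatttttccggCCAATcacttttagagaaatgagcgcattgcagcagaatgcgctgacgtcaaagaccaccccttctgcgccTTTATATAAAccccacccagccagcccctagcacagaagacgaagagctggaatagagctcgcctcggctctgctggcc
Dio3: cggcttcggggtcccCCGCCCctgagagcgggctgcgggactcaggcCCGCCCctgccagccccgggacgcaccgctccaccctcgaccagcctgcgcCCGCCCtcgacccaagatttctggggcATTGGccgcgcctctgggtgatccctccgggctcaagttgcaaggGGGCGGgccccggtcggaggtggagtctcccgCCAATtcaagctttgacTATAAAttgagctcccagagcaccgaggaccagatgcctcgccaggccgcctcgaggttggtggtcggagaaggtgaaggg
Dio3 had 25 CpG dinucleotides and a GC content of 69%, Meg3 had 13 and 53.7%, and Dlk1 had 9 and 55.7%, beside medians of 7 CpG and 52.7% over 32851 promoters of the same length. The observed over expected CpG ratio was 0.701 for Dio3, 0.602 for Meg3 and 0.427 for Dlk1, and the median over all promoters was 0.384. A ratio at least as high was found in 29% of promoters for Dio3, 35.6% for Meg3 and 46.7% for Dlk1. The Dio3 promoter held 1 TATAAA, 2 CCAAT and 4 GGGCGG matches. The Meg3 promoter held 1 CCAAT and 2 TATAAA matches that overlap on opposite strands, and the Dlk1 promoter held none of the 3 motifs in this window. TATAAA occurred in 13.6% of all promoters, CCAAT in 37.4% and GGGCGG in 35.7%. A match is a run of letters and not a measured site.

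Whole lists differed in length, from 63.11 to 169.3 Mb of covered sequence for H3K27ac (median 136.9) and from 65.34 to 162.2 Mb for H3K4me2 (median 100). A longer list covers more of any window, so each total length in the window is given with its share of the list. Lengths of bins and of single loci are in bp and not scaled, except where a scaled value is stated. Read depth and signal height were not in the lists, so no interval could be put on a single value. In bulk tissue, fewer cells that carry a mark and less of it per cell cannot be told apart, and the labelled cortex was not checked against marker genes because the lists name no genes.

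H3K27ac covered 98825 and 58275 bp of the window at E11.5, in replicates 1 and 2 as throughout. At E14.5 it covered 107600 and 70575 bp. At E17.5 the lengths were 95675 and 55375 bp for the frontal area and 75100 and 61325 bp for the occipital area. The 4 tissues overlapped, and replicate 1 lay above replicate 2 in each. By stage and area in that order, the means were 78550 ± 28673, 89087.5 ± 26181, 75525 ± 28496 and 68212.5 ± 9740 bp (SD, n = 2 each). The differences between these means were below the pooled SD within tissues of 24568.8 bp. Their sign depended on single lists: E14.5 minus E11.5 was 10537.5 bp, but -9737.5 bp without E11.5 replicate 2 and -7975 bp without E14.5 replicate 1. The E17.5 minus E11.5 difference was -6681.25 bp, but 13593.8 bp without E11.5 replicate 1 and 3393.75 bp without frontal replicate 2.

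As a share of all H3K27ac-covered sequence, the window held 0.1159% and 0.09235% at E11.5, and 0.07446% and 0.06589% at E14.5. The shares at E17.5 were 0.05651% and 0.03454% in frontal and 0.04649% and 0.04744% in occipital cortex. Both E11.5 shares lay above both E14.5 shares, which lay above all 4 E17.5 shares. The mean share was 0.104 ± 0.0166% at E11.5 and 0.0702 ± 0.00606% at E14.5 (SD, n = 2), and 0.0462 ± 0.00902% at E17.5 (SD, n = 4). Among 2614 windows of 1 Mb over the genome, this one held more H3K27ac than 94.5% and 88.6% at E11.5, 84.2% and 80.5% at E14.5, and between 57.2% and 76.2% at E17.5. The length in the window was thus similar over the stages while its share was highest at E11.5, when the lists were shortest.

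H3K4me2 covered 52450 and 82500 bp at E11.5, 28950 and 50675 bp at E14.5, 49050 and 37075 bp in frontal and 54425 and 88075 bp in occipital cortex at E17.5. Both E14.5 lists and both frontal lists lay below both E11.5 lists, and the occipital lists overlapped them. The means were 67475 ± 21249, 39812.5 ± 15362, 43062.5 ± 8468 and 71250 ± 23794 bp in that order (SD, n = 2 each), with a pooled SD within tissues of 18202.7 bp. The shares of the list were 0.07564% and 0.07387% at E11.5, 0.04431% and 0.05321% at E14.5, 0.0468% and 0.04118% in frontal and 0.04825% and 0.0543% in occipital cortex. Both E11.5 shares lay above the 6 later ones. The E14.5 range overlapped that of each area, and both occipital shares lay above both frontal shares. The frontal minus occipital difference was -28187.5 bp, and -7385.59 bp once the lengths were scaled to the list totals. It was -11362.5 bp without occipital replicate 2 and -45012.5 bp without occipital replicate 1.

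**Figure D1:**
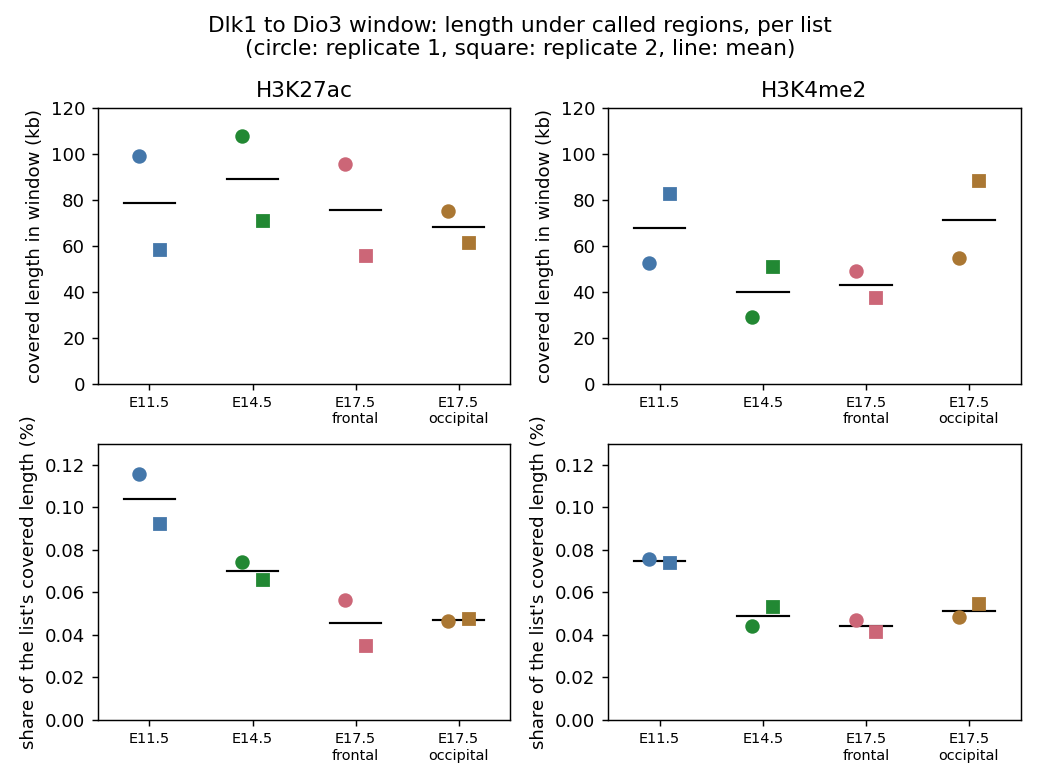
Covered length in the window in kb (top) and as a share of each list's covered length in percent (bottom), for H3K27ac (left) and H3K4me2 (right), with circles for replicate 1, squares for replicate 2 and lines for the mean of 2. The E11.5 shares, 0.09235% and 0.1159% for H3K27ac and 0.07387% and 0.07564% for H3K4me2, lie above all later ones, while the lengths overlap between all tissues for H3K27ac and between E11.5 and occipital cortex for H3K4me2.

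The marked sequence was unevenly spread over the window. In 50-kb bins, 9 of 20 bins held H3K27ac in all 8 lists and 9 held H3K4me2 in all 8. The 2 bins from 209 to 259 kb and from 859 to 909 kb beyond the Dlk1 position held no region of either mark in any list. The first 4 bins, from 91 kb before Dlk1 to 109 kb beyond it, held 43.2% to 59.3% of the H3K27ac length in the window and 43.5% to 61.1% of the H3K4me2 length. The longest stretch with no region of either mark in any of the 16 lists ran from 110879351 to 110981225, a length of 101875 bp that began 188.4 kb beyond Dlk1. Within the first 4 bins, the one from 9 to 59 kb beyond Dlk1 held means of only 2641 bp of H3K27ac and 2081 bp of H3K4me2. The regions thus fell mainly in a part up to 9 kb beyond Dlk1, a part from 59 to 109 kb, and separate clusters towards Dio3.

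**Figure D2:**
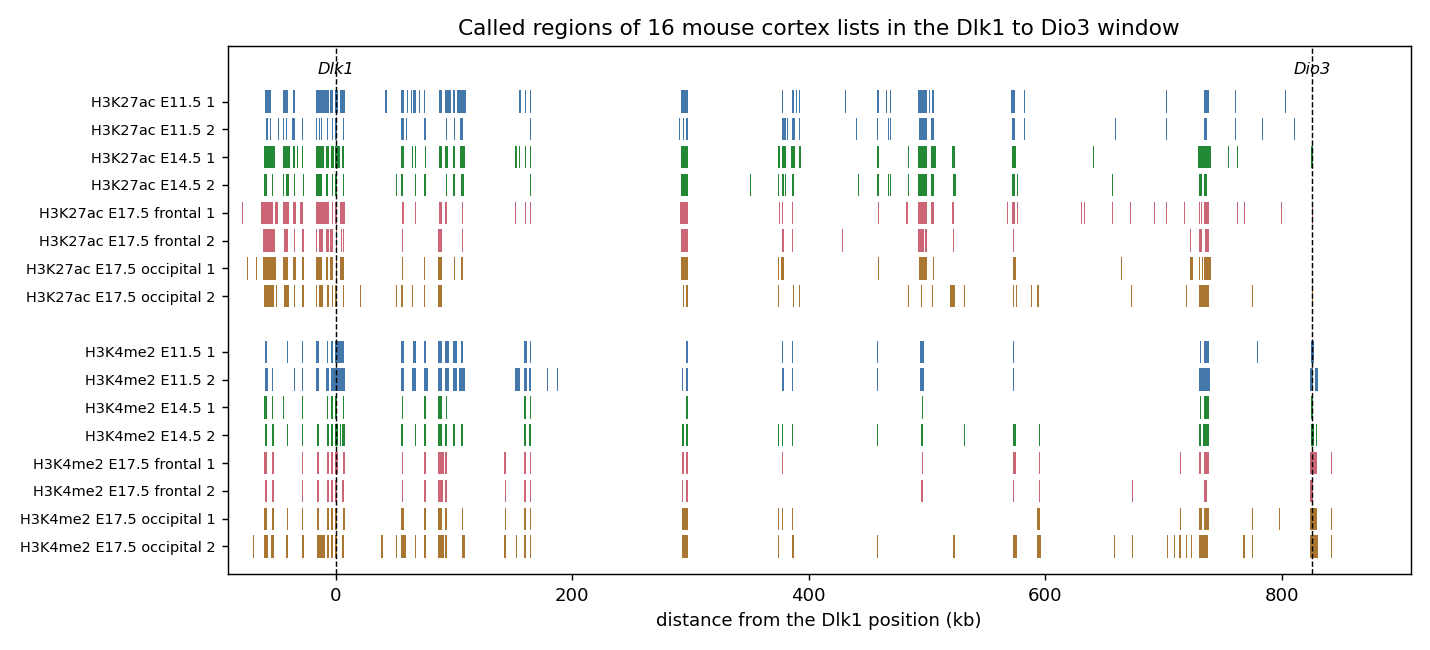
Called regions of the 16 lists as bars along the distance from the Dlk1 position in kb, 1 row per list and coloured by tissue, with dashed lines at the Dlk1 and Dio3 positions. The rows are dense up to 9 kb beyond Dlk1 and from 59 to 109 kb, with few bars between. No row has a bar from 188.4 to 290.2 kb.

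By mean over the 8 lists, the bin that holds Dlk1 (41 kb before to 9 kb beyond it) had the most of both marks, 18256 bp of H3K27ac and 11897 bp of H3K4me2. For H3K27ac it was followed by the bin before it (11216 bp) and by those at 459 to 509 kb (9694 bp), 59 to 109 kb (8937.5 bp) and 709 to 759 kb (6922 bp). For H3K4me2 it was followed by those at 59 to 109 kb (10547 bp), 709 to 759 kb (6828 bp) and 809 to 859 kb, which holds Dio3 (4634 bp), and by the bin before Dlk1 (3859 bp). The bin at 459 to 509 kb was thus among the 5 highest for H3K27ac only, and the bin of Dio3 for H3K4me2 only.

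A bin on each side of Dlk1 held H3K27ac lengths, in bp, that ran in opposite directions over the stages. Before Dlk1 (91 to 41 kb) it covered 7950 and 4650 bp at E11.5, 12550 and 5800 bp at E14.5, 17874 and 13075 bp in frontal and 16225 and 11600 bp in occipital cortex. Beyond Dlk1 (59 to 109 kb) it covered 21325 and 6575 bp at E11.5, 14400 and 7675 bp at E14.5, 5775 and 4200 bp in frontal and 7150 and 4400 bp in occipital cortex. In the first bin all 4 E17.5 lists lay above both E11.5 lists, and in the second 3 of them lay below both and occipital replicate 1 lay between. These lengths were not scaled to the list totals, which were 85.29 and 63.11 Mb at E11.5 and 129.3 to 169.3 Mb at E17.5. Whether the first bin rose by more than the whole lists did was not tested. H3K4me2 in the second bin covered 13925 and 21700 bp at E11.5 and 5725 to 10925 bp in the 6 later lists, which did not overlap with E11.5.

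**Figure D3:**
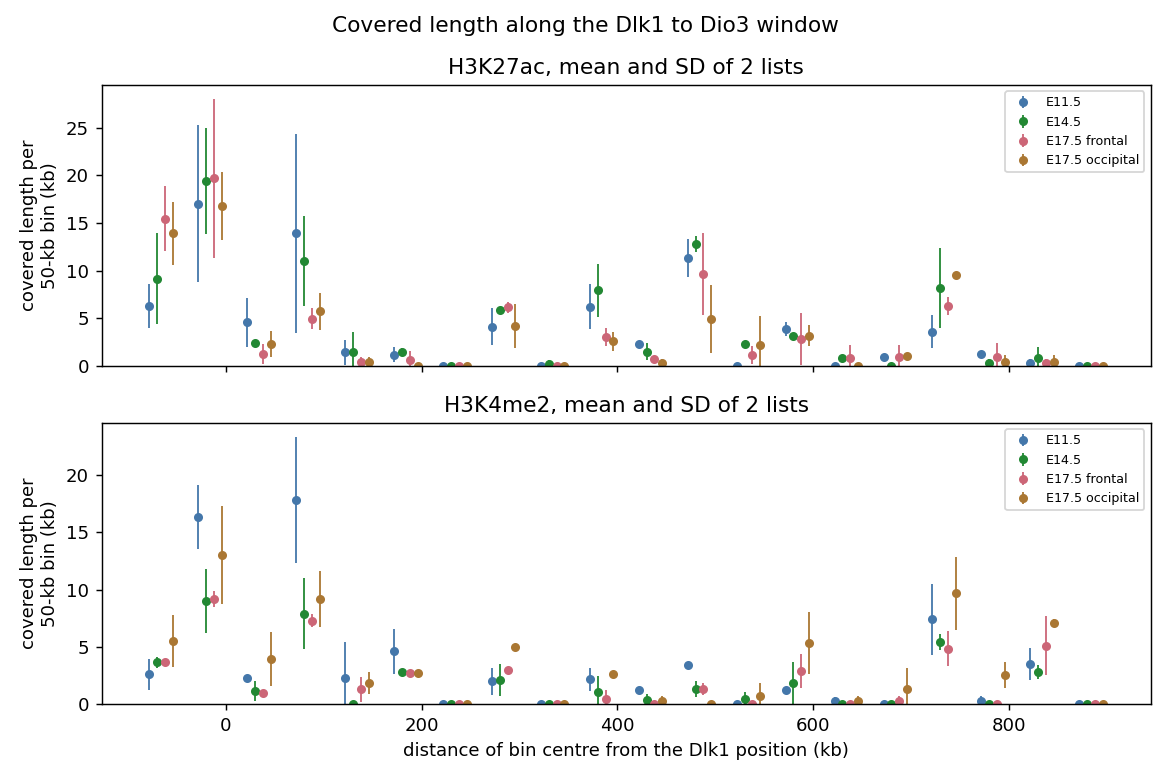
Covered length per 50-kb bin in kb against the distance of the bin centre from the Dlk1 position in kb, as mean and SD of 2 lists for each tissue, for H3K27ac (top) and H3K4me2 (bottom). The bin of Dlk1 has the highest mean over all lists for both marks, and the bin at 59 to 109 kb has its highest values at E11.5.

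Overlapping and adjoining regions of a mark were merged over its 8 lists into loci. The window held 93 H3K27ac loci, of which 43 (46.2%) occurred in 1 list and 12 (12.9%) in all 8, beside 38.2% and 17.01% of 137962 loci over the genome. It held 52 H3K4me2 loci, of which 19 (36.5%) occurred in 1 list and 13 (25%) in all 8, beside 31% and 25.92% of 91956. Both E11.5 lists called 26 H3K27ac loci, of which all 4 E17.5 lists called 12 and none of them 3. All 4 E17.5 lists called 14, of which the E11.5 lists shared 12, and 0 were missing from both. For H3K4me2, both E11.5 lists called 22 loci, of which all 4 E17.5 lists called 15 and none of them 1. All 4 E17.5 lists called 18, of which the E11.5 lists shared 15, and 2 were missing from both.

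At Dlk1, the H3K4me2 locus from 110687276 to 110698700 was present in all 8 lists and was longest at E11.5. It covered 9550 and 11325 bp at E11.5, 5000 and 6675 bp at E14.5, 5750 and 5050 bp in frontal and 5125 and 5600 bp in occipital cortex. Both E11.5 values lay above the other 6, with means of 10437.5 ± 1255 bp at E11.5 (SD, n = 2) and 5381 ± 346 bp at E17.5 (SD, n = 4). The log2 change of covered length from E11.5 to E17.5 was -0.93 ± 0.15 (SE), on the scale log2(bp + 200) used for all log2 changes below. Scaled to the list totals it was -1.30, and with E11.5 replicate 1 left out it was -1.05 and no longer called.

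The H3K27ac locus at Dlk1, from 110690552 to 110698676, was also present in all 8 lists. It covered 6650 and 2475 bp at E11.5, 6000 and 2925 bp at E14.5, 6075 and 2275 bp in frontal and 4950 and 2875 bp in occipital cortex. Replicates differed by more than the stages did, and the log2 change from E11.5 to E17.5 was -0.11 ± 0.59 (SE), which was not called. A second H3K27ac locus, from 110686351 to 110689400, lay within 5 kb of Dlk1 and covered between 1200 and 2850 bp in the 8 lists.

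At Dio3 the marks differed. The H3K4me2 locus from 111515076 to 111521700 covered 2525 and 4525 bp at E11.5, 2375 and 3225 bp at E14.5, 5975 and 3275 bp in frontal and 5975 and 6325 bp in occipital cortex. It was in all 8 lists, with both occipital values and frontal replicate 1 above all E11.5 and E14.5 values, and its log2 change from E11.5 to E17.5 was 0.60 ± 0.32 (SE), which was not called. H3K27ac over the Dio3 position, from 111515826 to 111517550, was called in 3 of 8 lists, with 1675 bp in E14.5 replicate 1, 575 bp in frontal replicate 1 and 950 bp in occipital replicate 2. In no tissue did both replicates call it, and neither E11.5 list did. The Dio3 promoter, the richest in CpG of the 3 printed above, is linked to these loci only through the approximate position in the rule. The Meg3 promoter was not placed, and CpG content was not compared with the marks.

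**Figure D4:**
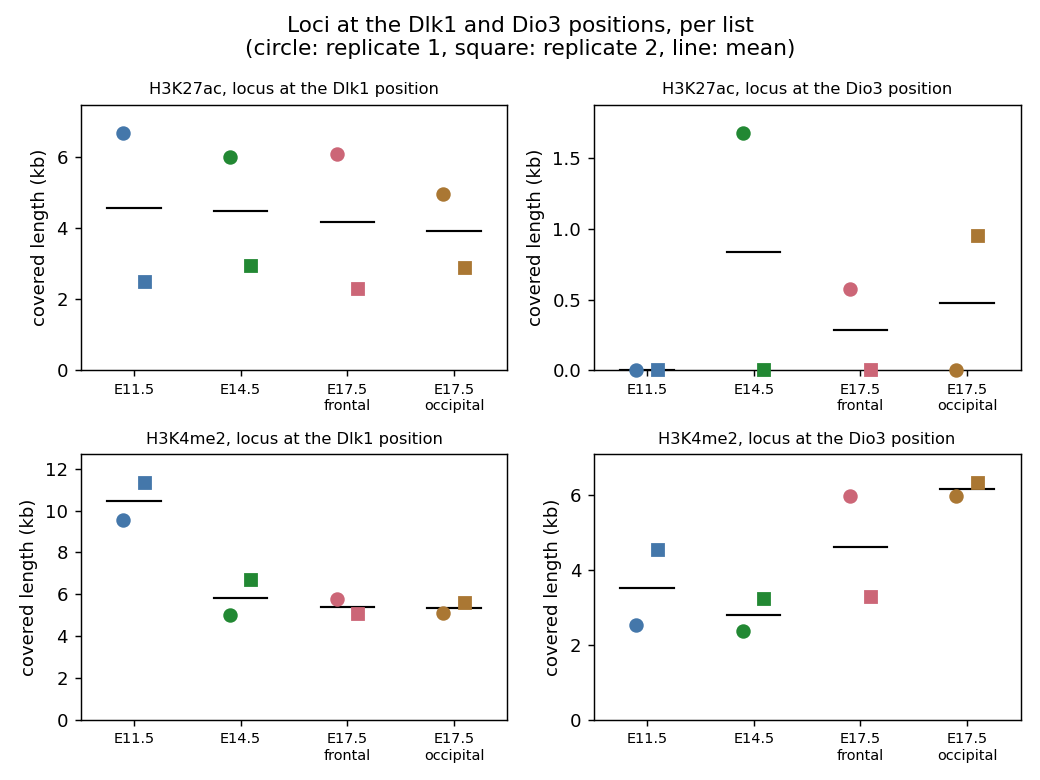
Covered length in kb of the loci over the Dlk1 position (left) and the Dio3 position (right), for H3K27ac (top) and H3K4me2 (bottom), with circles for replicate 1, squares for replicate 2 and lines for the mean of 2. H3K4me2 at Dlk1 is at 9550 bp or more at E11.5 and at 6675 bp or less later, and H3K27ac at Dio3 is 0 in 5 of 8 lists.

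Beyond Dlk1, 4 neighbouring loci of each mark between about 86 and 110 kb were examined as a series, which was chosen after their values were seen. The first H3K4me2 locus (110777351 to 110782425) covered 2875 and 3525 bp at E11.5, 2925 and 3450 bp at E14.5, 5050 and 4650 bp in frontal and 4075 and 5000 bp in occipital cortex. All 4 E17.5 values lay above the 4 earlier ones, and its log2 change from E11.5 to E17.5 was 0.53 ± 0.13 (SE), called higher. It was 0.17 and not called when lengths were scaled to the list totals, and the call held in 1 of 8 fits that left out a list, with 0.39 without E11.5 replicate 1.

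The next H3K4me2 loci ran the other way. The locus from 110783451 to 110786700 covered 2800 and 3250 bp at E11.5, 975 and 1575 bp at E14.5, 1250 and 1025 bp in frontal and 1175 and 1050 bp in occipital cortex (log2 change -1.28 ± 0.21, called lower). That call was lost with equal numbers of regions per list. The locus from 110790426 to 110794100 covered 3000 and 3675 bp at E11.5 and 500 and 1400 bp at E14.5, and was in none of the 4 E17.5 lists (log2 change -4.14 ± 0.45, called lower, also from E14.5 to E17.5 at -2.40). The call from E14.5 was lost with 1000 bp added and held in 3 of 8 fits with a list left out, being lost without E14.5 replicate 1 (-3.00) or any of the 4 E17.5 lists. A fitted change against lists at 0 depends on the added 200 bp and is no bound. The fourth, from 110795801 to 110800775, covered 1600 and 4975 bp at E11.5, 0 and 1225 bp at E14.5, 0 in both frontal lists and 850 and 1925 bp in occipital cortex, and was not called. The calls from E11.5 to E17.5 were lost without E11.5 replicate 1 for both loci (-1.38 and -4.28) and without E11.5 replicate 2 for the first (-1.18).

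No H3K27ac locus of the series was called, and its mean was higher at E17.5 than at E11.5 in the first locus and lower in the other 3, as for H3K4me2. The values at E14.5 differed between the marks, with means at the third locus of 1400 bp at E11.5 and 1375 bp at E14.5 for H3K27ac and of 3337.5 and 950 bp for H3K4me2. The difference between the marks was not tested. Its first locus (110777376 to 110781275) covered 2125 and 0 bp at E11.5, 2600 and 500 bp at E14.5, 2400 and 3175 bp in frontal and 3900 and 2800 bp in occipital cortex (log2 change 2.24 ± 1.06). The second (110783376 to 110788250) covered 4850 and 1125 bp at E11.5, 3125 and 1225 bp at E14.5, 1000 and 0 bp in frontal and 0 in both occipital lists (-3.05 ± 0.93). The third, from 110790176 to 110792100, covered 1925 and 875 bp at E11.5, 1475 and 1275 bp at E14.5, and 575 bp in 1 of 4 E17.5 lists (-2.43 ± 0.68). The fourth, from 110793626 to 110801250, covered 7625 and 2650 bp at E11.5, 4675 and 2550 bp at E14.5, 950 and 1025 bp in frontal and 1900 and 0 bp in occipital cortex (-2.43 ± 0.98). In the last 3 loci every E17.5 value lay below both E11.5 values.

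**Figure D5:**
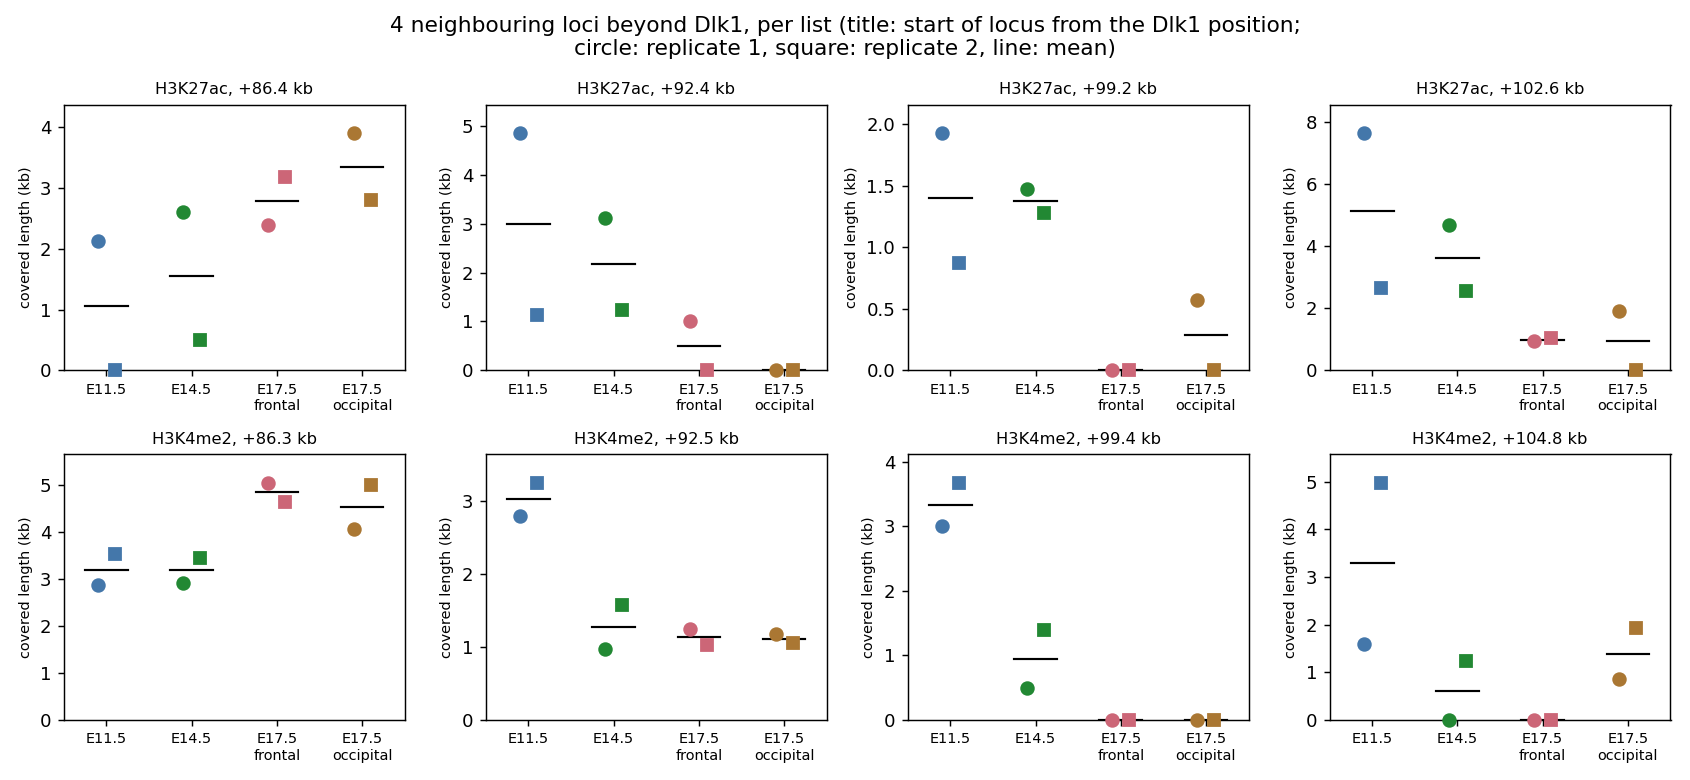
Covered length in kb of 4 neighbouring loci of H3K27ac (top) and H3K4me2 (bottom) per list, titled by the distance of each start from the Dlk1 position, with circles for replicate 1, squares for replicate 2 and lines for the mean of 2. Both marks have their highest mean at E17.5 in the first column and at E11.5 in the other columns.

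The broadest H3K27ac loci lay before Dlk1 and far beyond it. The locus from 110627777 to 110641901, which starts at -63.22 kb from Dlk1, covered 4625 and 2150 bp at E11.5, 9175 and 3575 bp at E14.5, 13025 and 10225 bp in frontal and 11650 and 8750 bp in occipital cortex. Its mean was 3387.5 ± 1750 bp at E11.5 (SD, n = 2) and 10912.5 ± 1840 bp at E17.5 (SD, n = 4), with no overlap of E17.5 and E11.5, and its log2 change of 1.71 ± 0.46 (SE) was not called. It was called with the replicate block, with loci in at least 3 lists and without either E14.5 list, at the same 1.71. It was 0.68 and not called with lengths scaled to the list totals. The locus from 110674301 to 110685525 covered 10775 and 3550 bp at E11.5, 9350 and 7075 bp at E14.5, 10950 and 6550 bp in frontal and 7225 and 6225 bp in occipital cortex, and the tissues overlapped.

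Of the broad H3K27ac loci towards Dio3, the one at 492.2 kb (111183151 to 111191400) covered 6450 to 8150 bp in 7 lists and 725 bp in occipital replicate 2. The one at 729.5 kb (111420526 to 111431025) covered 4225 and 2400 bp at E11.5, 10375 and 5200 bp at E14.5, 5175 and 6125 bp in frontal and 7375 and 8700 bp in occipital cortex. All later lists were above both E11.5 lists there, and the log2 change from E11.5 to E17.5 was 1.03 ± 0.34 (SE), not called, and 0.01 with lengths scaled to the list totals. The one at 291.5 kb (110982477 to 110989026) covered 5500 and 2050 bp at E11.5 and 2575 to 6550 bp later.

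H3K4me2 was broad at the same 3 places in part. At 730.1 kb (111421051 to 111430650) it covered 5200 and 9100 bp at E11.5, 4900 and 5900 bp at E14.5, 5400 and 3775 bp in frontal and 6425 and 8075 bp in occipital cortex, with overlapping tissues. At 292.7 kb (110983726 to 110988925) it covered 1175 and 2850 bp at E11.5, 1150 and 3075 bp at E14.5, 3050 and 2925 bp in frontal and 4900 and 5000 bp in occipital cortex (log2 change 0.98 ± 0.46, not called). At 494.1 kb (111185076 to 111189000) it covered 3375 and 3475 bp at E11.5, 825 and 1825 bp at E14.5, 950 and 1700 bp in frontal cortex and 0 in both occipital lists. That locus was called lower at E17.5 than at E11.5 (-2.74 ± 0.37) and higher in frontal than in occipital cortex (2.89 ± 0.43). Both calls were lost with equal numbers of regions per list, and the second also with loci in at least 3 lists. The first call was lost without E11.5 replicate 1, and the second without frontal replicate 2 or either occipital replicate.

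Calls over all loci came from limma, applied to loci found in at least 2 lists, at a Benjamini-Hochberg adjusted p below 0.05 over the genome. For H3K27ac from E11.5 to E17.5, 6 of 50 loci in the window were called, 1 higher and 5 lower, of which 1 and 3 were found in the lists of 1 tissue only and so owe their direction to the filter, where 18.97% of 85290 loci were called over the genome, 17.51% higher and 1.46% lower. The median log2 change was -0.51 in the window and 1.01 over the genome, and with lengths scaled to the list totals it was -1.13 and 0.62, with 0 loci called higher and 12 lower in the window and 11380 higher and 12375 lower over the genome. From E11.5 to E14.5, 3 of 50 were called, all lower, where 7.48% were called over the genome, 6.52% higher and 0.964% lower. From E14.5 to E17.5, 0 of 50 were called by limma, where 1.13% were called over the genome, 0.613% higher and 0.522% lower. In that limma fit 5 had an unadjusted p below 0.05, 1 higher and 4 lower. The share over the genome at that threshold was not computed, so the 5 cannot be set beside it. Between frontal and occipital cortex 1 of 50 was called higher in frontal, where 2.31% were called over the genome, 1.59% higher and 0.721% lower.

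The counts depended on single lists. Counts over the genome changed with these lists too, so a change of count is not particular to the window. Without E11.5 replicate 1 or replicate 2, the E11.5 to E17.5 count for H3K27ac was 2 or 1. The 3 loci found only at E11.5 then fell below the minimum of 2 lists, and the others that were lost were still tested. Without frontal replicate 1 or occipital replicate 1 it was 9. The E11.5 to E14.5 count was 0 when any of the 4 lists compared was left out, and the E14.5 to E17.5 count was 1 without occipital replicate 2. The call between frontal and occipital cortex was lost with any list left out.

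The 6 H3K27ac loci called over E11.5 to E17.5 were short or absent at a stage or in an area of E17.5 cortex. The loci from 110750426 to 110752050 (800 and 925 bp at E11.5), 111273026 to 111273850 (725 and 575 bp) and 111451701 to 111452325 (500 and 600 bp) were in both E11.5 lists and in no later list. They met the minimum of 2 lists through E11.5 alone, so that their calls as lower, and all 3 calls from E11.5 to E14.5, which are the same loci, were fixed by the filter. The locus from 111076426 to 111079425 covered 1675 and 2475 bp at E11.5, 3000 and 2275 bp at E14.5, 775 and 500 bp in frontal and 500 and 600 bp in occipital cortex (log2 change -1.51 ± 0.27), a call lost only without E11.5 replicate 2 (-1.25). The locus from 110765951 to 110767175 covered 1075 and 1000 bp at E11.5, 900 and 1225 bp at E14.5, 0 in both frontal lists and 775 and 875 bp in occipital cortex (-1.45 ± 0.36), a call lost with the replicate block, with 1000 bp added and with loci in at least 3 lists or in any list. It held in 4 of 8 fits with a list left out. The locus from 111118952 to 111119700 had 575 bp in each frontal list and 0 in the other 6. It met the minimum through frontal cortex alone, which fixed the direction of its calls as higher at E17.5 and in frontal cortex. Its stage call held in 1 of 6 fits with a list left out.

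For H3K4me2 from E11.5 to E17.5, 10 of 33 loci were called, 5 higher and 5 lower, where 22.65% of 63453 loci were called over the genome, 19.53% higher and 3.13% lower. Of those higher, 2 were found in the lists of 1 tissue only, and the locus from 110833576 to 110835275 in E17.5 lists only. The filter fixed the direction of these calls. The median log2 change was -0.10 in the window and 0.37 over the genome, and -0.44 and 0.06 with lengths scaled to the list totals. With that scaling 4 were called higher and 8 lower in the window, and 11041 higher and 3776 lower of 63453 over the genome. From E14.5 to E17.5, 5 were called, 4 higher and 1 lower, where 13.59% were called over the genome, 13.43% higher and 0.162% lower. Those higher again include the 2 loci of 1 tissue and the locus from 110833576 to 110835275, with their direction fixed by the filter. From E11.5 to E14.5, 1 was called, higher, where 3.94% were called over the genome, 1.87% higher and 2.08% lower. Between frontal and occipital cortex 4 were called, 1 higher in frontal and 3 higher in occipital, where 9.93% were called over the genome, 0.698% and 9.23%. With a list left out, counts over the genome changed as well as those in the window. The E11.5 to E17.5 count was 2 without E11.5 replicate 1 and 6 without either occipital replicate. The E14.5 to E17.5 count was 0 without E14.5 replicate 1, and 1 and 0 without occipital replicates 1 and 2. The count between the areas was 2 without frontal replicate 2 and 0 without either occipital replicate, and the E11.5 to E14.5 call was lost with any list left out, while 2 loci were then called lower without E14.5 replicate 2.

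The H3K4me2 loci called higher at E17.5 lay on both sides of the 101875-bp stretch without regions, with 3 of 5 beyond it. The locus from 111283876 to 111287925, at 592.9 kb, was absent from both E11.5 lists and covered 550 and 500 bp at E14.5, 1325 and 1150 bp in frontal and 2875 and 4000 bp in occipital cortex (log2 change 3.51 ± 0.27). Its length was thus ordered by stage, and the call from E11.5 to E17.5 held with each list left out. The locus from 110833576 to 110835275, at 142.6 kb, was in all 4 E17.5 lists (1275 and 525 bp in frontal, 1150 and 1575 bp in occipital cortex) and in no earlier one (2.66 ± 0.42), a call lost without E11.5 replicate 1. That locus met the minimum of 2 lists through E17.5 alone, so its calls as higher than at E11.5 and E14.5 were fixed by the filter. The loci from 111465651 to 111466950 (800 and 1300 bp) and 111489051 to 111490025 (975 and 650 bp) were in the 2 occipital lists only. They met the minimum through occipital cortex alone, so their calls as higher there and at E17.5 were fixed by the filter. The locus from 111064901 to 111066275 covered 1025 and 1375 bp in occipital cortex, 500 bp in E14.5 replicate 2 and 0 in the other lists, and its call between the areas (-2.80 ± 0.61) held in 2 of 8 fits with a list left out.

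Some sequence was called in every list. H3K27ac was called in all 8 lists over 17 stretches that sum to 12350 bp, and H3K4me2 over 16 stretches that sum to 21773 bp. Both marks were called in all 16 lists over 8 stretches of 6327 bp in all. One of them, 675 bp from 110691626 to 110692300, began 0.626 kb beyond the Dlk1 position, and 3 others of 650 bp lay within 8 kb of it. The longest, 1750 bp from 111425951 to 111427700, lay 735 kb beyond Dlk1, and 1100 bp from 110987551 to 110988650 lay at 296.6 kb. H3K4me2 alone was constant over 2824 bp from 110777902 to 110780725 (86.9 kb) and over 2300 bp from 111515551 to 111517850, which spans the Dio3 position.

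Whether the marks coincide was not itself used by the rule and was tested over the 8 pairs of lists from the same tissue and replicate. The share of a mark under the other is limited where the other covers less of the window, and the rule lists both lengths. The test is thus not independent of the values that the rule used. Of the H3K27ac length in the window, 41.4% and 52.3% lay under H3K4me2 at E11.5, 24.5% and 47.7% at E14.5, 31.8% and 36.3% in frontal and 40.9% and 69.7% in occipital cortex. Over the rest of the genome the shares were 56.7% and 71.5%, 37.8% and 56.5%, 41.2% and 41.4%, and 48.2% and 70%. The share was lower in the window in 8 of 8 pairs, at 43.1 ± 13.8% against 52.9 ± 13% (SD, n = 8), a mean difference of -9.83 ± 5.98 percentage points. The exact two-sided sign-flip permutation test gave p = 0.00781, the smallest that 8 pairs allow, and 0.0156 adjusted over the 2 shares tested. All 8 pairs measure the same window, so this p speaks only to how regularly the difference recurred over lists. Whether the share is unusual among windows of this size was not tested. Counted by regions with at least 1 bp of overlap the difference was -1.24 points (adjusted p = 0.664, exact permutation), and between the Dlk1 and Dio3 positions alone -6.77 points (adjusted p = 0.0938, exact permutation).

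Of the H3K4me2 length, 61.7 ± 17% lay under H3K27ac in the window and 65.3 ± 12.9% in the rest of the genome (SD, n = 8). The difference of -3.55 ± 9.64 points was higher in the window in 3 of 8 pairs (exact two-sided sign-flip permutation p = 0.328, adjusted 0.328). The pair values ranged from 36.9% in E11.5 replicate 2 to 91.2% in E14.5 replicate 1.

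Positions were shared between lists only in part. The Jaccard index, the length shared by 2 lists over the length covered by either, was 0.441 ± 0.0777 between H3K27ac replicates of a tissue (SD, 4 pairs) and 0.415 ± 0.0907 between tissues (24 pairs). For H3K4me2 it was 0.592 ± 0.0599 between replicates and 0.470 ± 0.108 between tissues. An E11.5 list and an E17.5 list shared 0.336 ± 0.0842 for H3K27ac and 0.394 ± 0.0464 for H3K4me2 (8 pairs each). Frontal and occipital lists shared 0.479 ± 0.0962 and 0.528 ± 0.125 (4 pairs each). For H3K27ac the mean between tissues lay within 1 SD of that between replicates. The pairs share lists, so these values carry no test.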

How the data were processed

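The authors deposited, for each mouse ChIP sample, a list of called regions with 3 columns per the file contents (chromosome, start and end), and no score or read count. Lists of 16 mouse samples were used, and rhesus samples were not analysed here. Per the submitters' processing notes the tools include Bowtie 0.12.9 and the builds hg19 and mm9. The sources used here do not name the region caller, its threshold or the use of the inputs. Starts lie on a grid of 25 bp, with an offset of 1 bp in 2 lists, and gaps between regions are at least 1025 bp in every list, so the deposited positions set the precision.

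Covered bp and regions were counted per list in the window and in 50-kb bins. Regions that touch or overlap were merged over the 8 lists of a mark into loci. Covered length was tested on log2(bp + 200) with limma 3.58.1 (R 4.3.3, eBayes with trend) for loci in at least 2 lists, with 1 mean per tissue and all 8 lists of a mark in the fit. P-values were adjusted (Benjamini-Hochberg) over all loci. Overlap of the marks was tested by exact sign flips in Python 3.11.15. The limma step was tested on simulated data, and the handling of intervals on known cases.

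Named were loci within 5 kb of the Dlk1 or Dio3 position, the 5 loci of each mark with the highest mean length, up to 10 called loci per mark by size of change, the 5 highest bins and the empty bins. The members, lists and tests were chosen with earlier results of these data known. Alternatives were another added length, other minimums of lists and of width, merging within 1000 bp, scaling to list totals, equal numbers of regions, other bin sizes, other overlap rules, a replicate block and leaving out each list.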

Additional observations from a re-analysis of the deposited data

How the results depend on the processing

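Each result was recomputed under the alternatives listed above. None of the loci named by the rule changed direction where it was called in either fit. With lengths scaled to the list totals, the window total of H3K27ac was lower at E14.5 than at E11.5 by a mean of -43278.6 bp instead of higher by 10537.5 bp, the E17.5 minus E11.5 difference was -73806.7 bp instead of -6681.25, and the frontal minus occipital difference of H3K4me2 was -7385.59 bp. For the H3K4me2 share, the E14.5 minus E11.5 difference of -0.026 points was -0.0308 with equal numbers of regions per list, -0.033 with regions of at least 1000 bp, and -0.0304 to -0.0215 with a list left out, and the E17.5 minus E11.5 difference of -0.0271 was -0.0322 with equal numbers. The E17.5 minus E11.5 difference of the H3K4me2 total (-10318.8 bp) was 4706.25 bp without E11.5 replicate 2. Bins empty in all lists numbered 7 of 25 kb, 0 of 100 kb, and 5 of 50 kb with regions of at least 1000 bp, when 5 bins instead of 9 held H3K27ac in all lists.

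Counts of called loci moved most, and those over the genome moved too. Between the areas, 0 of 85290 H3K27ac loci were called over the genome with 1000 bp added, scaling or the replicate block. With equal numbers, 428 were higher and 320 lower of 59117. For H3K4me2 between the areas, 0 of 51199 were called over the genome with at least 3 lists. With equal numbers, 1134 were higher and 1678 lower of 40125. H3K27ac from E11.5 to E14.5 gave 3, all lower, but 0 with loci in at least 3 lists or in any list. With equal numbers it gave 6, 1 higher and 5 lower, where 4408 were higher and 1675 lower of 59117 over the genome. From E14.5 to E17.5 it gave 0, but 5 with equal numbers, all lower, where 1719 were higher and 1138 lower over the genome. From E11.5 to E17.5 it gave 6, but 2 with loci in at least 3 lists, 12 scaled to list totals and 10 with equal numbers. All 12 and all 10 were lower, and over the genome equal numbers gave 8702 higher and 2397 lower. Between the areas it gave 1, but 0 with 1000 bp added, at least 3 lists, any list, scaling, equal numbers or the replicate block. H3K4me2 from E11.5 to E14.5 gave 1, higher, but 0 with 1000 bp added, at least 3 lists or the replicate block. With equal numbers it gave 4, all lower, where 1486 were higher and 1856 lower of 40125 over the genome. From E14.5 to E17.5 it gave 5, but 3 with 1000 bp added, at least 3 lists or any list. With equal numbers it gave 1, lower, where 3079 were higher and 657 lower over the genome. From E11.5 to E17.5 it gave 10, but 6 with at least 3 lists or any list. Between the areas it gave 4, but 0 with at least 3 lists or equal numbers. Leaving out each list gave, in the same order, 0 to 4, 0 to 1, 1 to 9 and 0 for H3K27ac, and 0 to 2, 0 to 6, 2 to 11 and 0 to 5 for H3K4me2. Loci in only 2 lists cannot be tested with a minimum of 3. For the other changes the cause was not tested. Where a tissue kept 1 list, that list was assumed to vary like the other tissues.

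Replicate numbers are shared by the labels but mark no stated litter or day, and deviations of same-numbered lists correlated between -0.204 and 0.242 over loci. With the replicate number as a block the H3K27ac counts were 3, 0, 6 and 0 (from E11.5 to E17.5, the loci at 110765951 and 111118952 were lost, and that at 110627777 and 1 not named were gained) and the H3K4me2 counts 0, 6, 11 and 3. The lower share of H3K27ac under H3K4me2 in the window (-9.83 points) was -1.24 when regions with at least 1 bp of overlap were counted and -6.77 between the Dlk1 and Dio3 positions, both no longer past 0.05 in the exact permutation test. With 2 lists per tissue and no read depth, a region missing from a list is not shown to lack the mark.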
